A study of Mus musculus with 16 samples.

Results

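Myo1d, Myo18b, Jam2, Csmd3, Mmp28 and Ccdc162 are 6 of the 32285 genes listed in the count matrices, and were followed here because their microglial levels were lower in wild-type mice given the STING agonist DMXAA. They were picked from an earlier reading of these data. Mmp28 and Ccdc162 were among the 5 largest called falls in wild-type microglia. Myo1d, Myo18b, Jam2 and Csmd3 are 4 of the 5 genes whose microglial response was called more negative in wild-type than in Ifnar1-/- mice. The microglial values that chose the genes are therefore given as descriptions, without a test. Tests are given for what the choice did not use, which is their levels in other classes of nuclei and, for Mmp28 and Ccdc162, the microglial response in Ifnar1-/- mice.

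The 6 genes encode proteins of different kinds, a pair of them myosins. Myo1d encodes a class I myosin, a motor that links membranes to actin, and Myo18b encodes a class XVIII myosin best known from the sarcomere of striated muscle. Jam2 encodes junctional adhesion molecule B, an immunoglobulin-family protein of cell contacts and endothelial tight junctions. Csmd3 encodes a very large transmembrane protein made mostly of CUB and sushi domains, a domain pair shared with complement regulators. Mmp28 encodes epilysin, a secreted metalloproteinase, and Ccdc162 a coiled-coil protein whose function is little known. Microglia are the resident macrophages of the brain parenchyma. DMXAA activates the mouse form of STING, the adaptor that induces type I interferon, and IFNAR1 is a subunit of the receptor through which that interferon acts.

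Nuclei of the hippocampus were profiled in 16 libraries by droplet single-nucleus RNA-seq, in 4 groups of 4. WT (C57BL/6) mice and KO (Ifnar1-/-) mice, which lack the receptor in every cell, received vehicle or DMXAA. The age given for the samples was 2 months and 23 days for WT and 3 months and 3 days for KO. All were male, injections into the peritoneum were repeated, and tissue was taken the day after the last one. Genotype coincides with age and cohort, so these cannot be told apart.

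After filtering, 108878 nuclei were kept (5163 to 9237 per library, 32998815 to 52206524 UMIs each), and 96823 of them fell in clusters named from marker genes, such as microglia-like or astrocyte-like. The microglia-like class held 4748 nuclei, 210 to 386 per library, with 385494 to 843686 UMIs per library. Pairs of libraries shared 3 to 21 cell barcodes. Ifnar1 in excitatory-neuron-like nuclei lay at 15.6 to 17.1 CPM (UMIs of the gene per 1e6 UMIs of the class in that library) in WT vehicle and 7.6 to 9.5 CPM in KO vehicle libraries. In microglia the Ifnar1 ranges overlapped, 36.7 to 83.1 CPM in WT and 16.8 to 58.2 CPM in KO, so that 3′-end counts check the deletion only in part. The library WT DMXAA replicate 3 stood apart from the other libraries of its group. Clustering without the 6 genes placed 367, 300 and 295 microglial nuclei of WT DMXAA replicates 1, 2 and 4 in one microglia-like cluster but only 10 of replicate 3. The other microglia-like cluster held 376 nuclei of that replicate and nearly all microglia of the vehicle and KO libraries. The main results that rest on this library are given below with and without it.

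All 6 genes are annotated as protein-coding (GENCODE M21, GRCm38). Myo1d lies at chr11:80482126-80780025 on the minus strand and Mmp28 on the same chromosome at chr11:83440768-83463071, also minus. Myo18b lies at chr5:112688876-112896362 (minus), Jam2 at chr16:84774123-84825928 (plus), Csmd3 at chr15:47580637-48792063 (minus) and Ccdc162 at chr10:41538846-41716634 (minus). Introns were counted, and merged exons make up between 1.39% of the gene (Csmd3) and 17.37% (Mmp28). Jam2 lies 6.66 Mb from Ifnar1, the deleted gene, on the same chromosome. Antisense or overlapping genes added little, the highest being 1700095B10Rik, antisense to Myo18b, at 1.68 CPM in microglia, and Gm17196, antisense to Ccdc162, at 1.63 CPM.

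The genes differ widely in length, so levels between them were compared per kilobase of gene. In WT vehicle microglia, Csmd3 was highest at 4.09 CPM per kb of gene, followed by Jam2 at 2.02 and Mmp28 at 1.72 CPM per kb of gene. Myo18b stood at 0.58, Myo1d at 0.443 and Ccdc162 at 0.244 CPM per kb. Per kilobase of merged exon Csmd3 was again highest, at 293.6 CPM per kb, but the order below it changed, to Myo1d (20.4), Jam2 (17.3), Myo18b (11.3), Mmp28 (9.92) and Ccdc162 (4.25). Only Csmd3 (first), Myo18b and Ccdc162 (last) held their places on both scales.

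Only Mmp28 had an entry in the RefSeq promoter table used here (GRCm38.p6). Its upstream sequence is shown for that reason. The stretch just before the annotated start, at chr11:83463072-83463290 on the minus strand, are written 5′ to 3′ with an E-box (CANNTG) in capitals.
Mmp28 upstream: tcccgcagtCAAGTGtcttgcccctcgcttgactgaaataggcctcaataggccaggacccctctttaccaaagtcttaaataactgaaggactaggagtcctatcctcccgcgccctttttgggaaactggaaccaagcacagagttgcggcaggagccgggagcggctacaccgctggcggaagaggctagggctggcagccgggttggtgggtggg
The E-box begins 210 bases before the start, and 62.0% of 32851 promoter windows of this length hold one on either strand. The window has no match on either strand to the ISRE core, an interferon-response element found in 2.62% of windows, to GAGGAA, a PU.1 core found in 20.32%, or to TTCNNNGAA, the GAS element, found in 6.24%. Its GC content was 58.4%, against a median of 52.1% over all windows.

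In WT vehicle libraries, Myo18b was found almost only in microglia-like nuclei. Its level was 120 ± 15.1 CPM there (SD, n = 4 libraries, as for all values that follow unless stated), against 1.68 ± 1.93 CPM in the next class, oligodendrocyte precursor (OPC)-like nuclei. No Myo18b UMI was found in oligodendrocyte-like, fibroblast-like or choroid-plexus-like nuclei of these libraries. Border-macrophage-like nuclei, the macrophages of meninges and vessels, were too few for this and were pooled over all 16 libraries. In these 134 nuclei, 12 of them from WT vehicle libraries, 1 Myo18b UMI was found.

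Csmd3 was highest in microglia as well, at 4956 ± 100.4 CPM, followed by OPC at 3466 ± 81.5 CPM. The library ranges of the 2 classes did not overlap. Oligodendrocytes (1667 ± 149 CPM) and excitatory neurons (1471 ± 107 CPM) came next with overlapping ranges, then inhibitory neurons at 1062 ± 103 CPM. Within inhibitory neurons, the Adarb2 group carried 2410 ± 274 CPM of Csmd3 and the Lhx6 group 452 ± 78.5 CPM. Astrocytes (90.7 ± 14.6 CPM) and fibroblasts (88.5 ± 27.1 CPM) lay far below. Csmd3 was thus measured in neurons and in oligodendrocyte-lineage nuclei as well as in microglia. Border-macrophage-like nuclei, pooled over all 16 libraries, carried 261 CPM of Csmd3.

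Myo1d was mainly an oligodendrocyte gene. It reached 547 ± 74.5 CPM in oligodendrocytes and 291 ± 30.1 CPM in choroid plexus (n = 3), against 132 ± 22.1 CPM in microglia, which came next without overlap with either neighbour. Excitatory neurons had 47.5 ± 3.67 CPM and astrocytes 3.26 ± 1.18 CPM of Myo1d. Jam2 was shared by 3 glial classes whose library ranges overlapped: OPC at 121 ± 15.4 CPM, microglia at 105 ± 18.6 CPM and astrocytes at 90.4 ± 4.81 CPM. All other classes tested had 21.3 CPM of Jam2 or less. In the small ependymal-like class, which was not tested, 76 of 323 nuclei held a Jam2 UMI, at 76.6 CPM pooled over all 16 libraries. No cluster met the rule for an endothelial name, so the level of Jam2 in endothelial nuclei is not given.

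Mmp28 was low everywhere. Microglia (38.4 ± 8.17 CPM) and fibroblasts (27.9 ± 12.5 CPM) were highest with overlapping ranges, and the Mmp28 level in astrocytes was 12.4 ± 1.25 CPM. Among the 8 classes with enough nuclei per library, Ccdc162 was highest in choroid plexus at 282 ± 14.0 CPM (n = 3), then in microglia at 43.3 ± 16.8 CPM and astrocytes at 19.2 ± 6.06 CPM, the last 2 overlapping. It was higher still in the small ependymal-like class, whose cells line the ventricles with motile cilia. There Ccdc162 stood at 1267 CPM in the 1 WT vehicle library with enough such nuclei. Pooled over all 16 libraries, 318 of 323 nuclei held a Ccdc162 UMI, at 1724 CPM. The map of class levels shows these patterns.

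**Figure D1:**
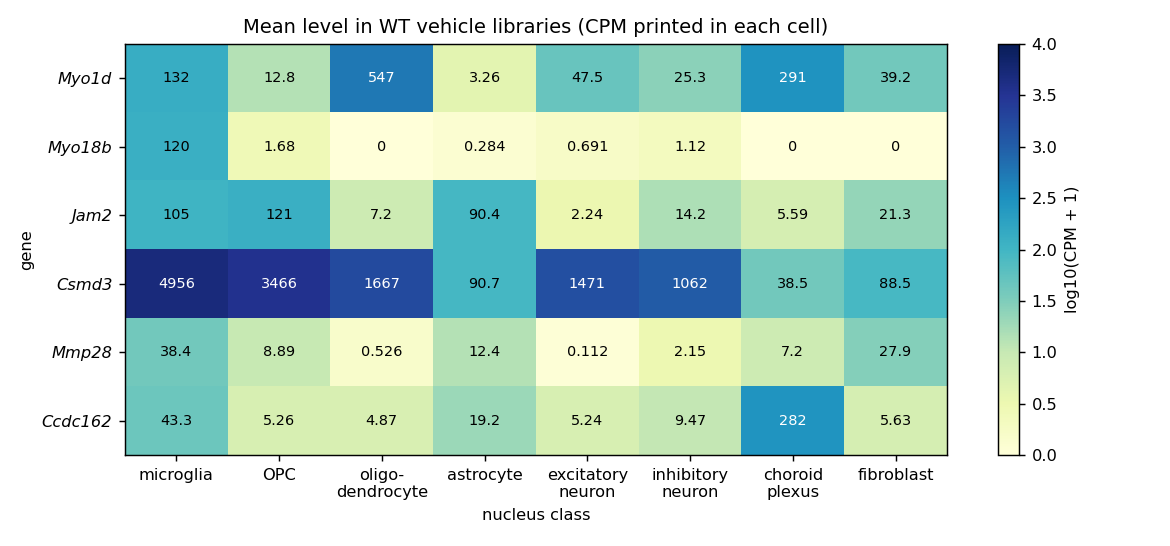
Mean level of each gene (rows) in 8 classes of nuclei (columns) of the WT vehicle libraries, in CPM printed in each cell and coloured as log10(CPM + 1); n = 4 libraries, 3 for choroid plexus. Myo18b stands out in microglia alone, whereas Myo1d peaks in oligodendrocytes at 547 CPM, Ccdc162 in choroid plexus at 282 CPM, and Jam2 and Csmd3 are shared with OPC.

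Genes with the most similar pattern over the 8 classes were found by Pearson correlation of mean log2 CPM, among 11665 genes with at least 5 CPM in microglia. Unlike the levels above, these means were taken over the libraries of all 4 groups, so DMXAA and KO libraries entered too. For Myo18b these were Gm13479 (r = 0.994), Gm15356 (0.993) and Haspin (0.993). For Mmp28 they were Tap2 (0.987), Plin2 (0.981) and Swap70 (0.977), for Ccdc162 B230307C23Rik (0.986), 9030407P20Rik (0.985) and Map3k15 (0.977). Csmd3 was closest to March1 (0.963), Mex3b (0.960) and Ptpre (0.955), Jam2 to Itpr2 (0.974), Pomt1 (0.967) and R74862 (0.949), and Myo1d to Zfp553 (0.974), Trim35 (0.960) and Dis3l2 (0.952). The classes come from the same libraries, so these coefficients only describe the pattern. None of the 6 genes was among the nearest of another, and coefficients between them ran from -0.58 to 0.78, the highest between Jam2 and Mmp28.

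In WT microglia, Myo18b stood at 134, 103, 132 and 113 CPM in the vehicle libraries (replicates 1 to 4) and at 18.1, 21.9, 27.3 and 41.3 CPM in the DMXAA libraries. Every DMXAA library was below every vehicle library. In KO microglia, Myo18b was at 195, 143, 179 and 216 CPM with vehicle and at 171, 161, 142 and 171 CPM with DMXAA, and the groups overlapped. The fitted log2 change of Myo18b was -2.08 (SE 0.21) in WT, a 4.23-fold lower level, and -0.23 (SE 0.19) in KO.

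Myo1d followed the same course. Vehicle libraries of WT mice had 142, 156, 123 and 106 CPM and DMXAA libraries 25.1, 23.5, 24.9 and 52.0 CPM, without overlap. KO libraries had 84.1, 73.9, 133 and 116 CPM of Myo1d with vehicle and 106, 92.1, 121 and 113 CPM with DMXAA, within one range. The log2 change of Myo1d was -2.02 (SE 0.24) in WT and 0.04 (SE 0.23) in KO.

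The adhesion gene Jam2 differed less. Its WT microglial levels were 87.5, 108, 93.8 and 130 CPM with vehicle and 40.4, 50.1, 33.2 and 61.3 CPM with DMXAA. In KO microglia Jam2 went the other way, from 84.1, 92.9, 57.2 and 69.0 CPM with vehicle to 122, 109, 103 and 109 CPM with DMXAA. Neither genotype had overlapping groups. The log2 change was -1.14 (SE 0.20) in WT and 0.50 (SE 0.20) in KO, and the second value belongs to the contrast by which Jam2 was chosen. Of all 8910 microglial genes tested, 3.49% had every KO DMXAA library above every KO vehicle library.

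Csmd3, the most abundant of the 6, had 4928, 4919, 5102 and 4875 CPM in WT vehicle microglia and 2194, 2459, 2455 and 3798 CPM with DMXAA. Replicate 4 was well above the other 3 DMXAA libraries but below all vehicle libraries. KO libraries had 3904, 3355, 3577 and 4693 CPM of Csmd3 with vehicle and 4566, 4695, 5175 and 5240 CPM with DMXAA, which overlapped. The log2 change of Csmd3 was -0.82 (SE 0.14) in WT, a 1.76-fold lower level, and 0.29 (SE 0.14) in KO.

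The secreted protease gene Mmp28 rested on few counts, 98 UMIs over the 4 WT vehicle libraries and 23 over the 4 WT DMXAA libraries. Its levels were 39.1, 45.1, 42.8 and 26.8 CPM with vehicle and 0, 4.7, 10.7 and 14.7 CPM with DMXAA. The library without an Mmp28 UMI allows up to 4.18 CPM (3 counts, counting error only). KO microglia had 48.1, 23.8, 34.3 and 24.5 CPM with vehicle and 28.5, 33.5, 24.5 and 45.5 CPM with DMXAA. The WT groups did not overlap and the KO groups did. The log2 change of Mmp28 was -2.22 (SE 0.48) in WT.

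Ccdc162 was at 60.9, 41.9, 49.4 and 21.1 CPM in WT vehicle microglia and at 4.18, 12.5, 5.93 and 14.7 CPM with DMXAA, again without overlap. KO microglia had 43.3, 31.0, 62.9 and 49.0 CPM of Ccdc162 with vehicle and 54.5, 37.7, 43.7 and 60.1 CPM with DMXAA. The log2 change was -2.16 (SE 0.37) in WT. In the KO mice, which did not enter the choice of Mmp28 and Ccdc162, edgeR called neither gene. The log2 changes were -0.02 (SE 0.44, Benjamini-Hochberg adjusted p = 0.998) for Mmp28 and 0.02 (SE 0.33, adjusted p = 0.998) for Ccdc162. These rest on 59 and 66 UMIs of Mmp28 and on 86 and 97 UMIs of Ccdc162 in the KO vehicle and KO DMXAA groups. In KO microglia 0% of 8910 genes were called (0 genes by edgeR or DESeq2, with 420 at an unadjusted p under 0.05).

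**Figure D2:**
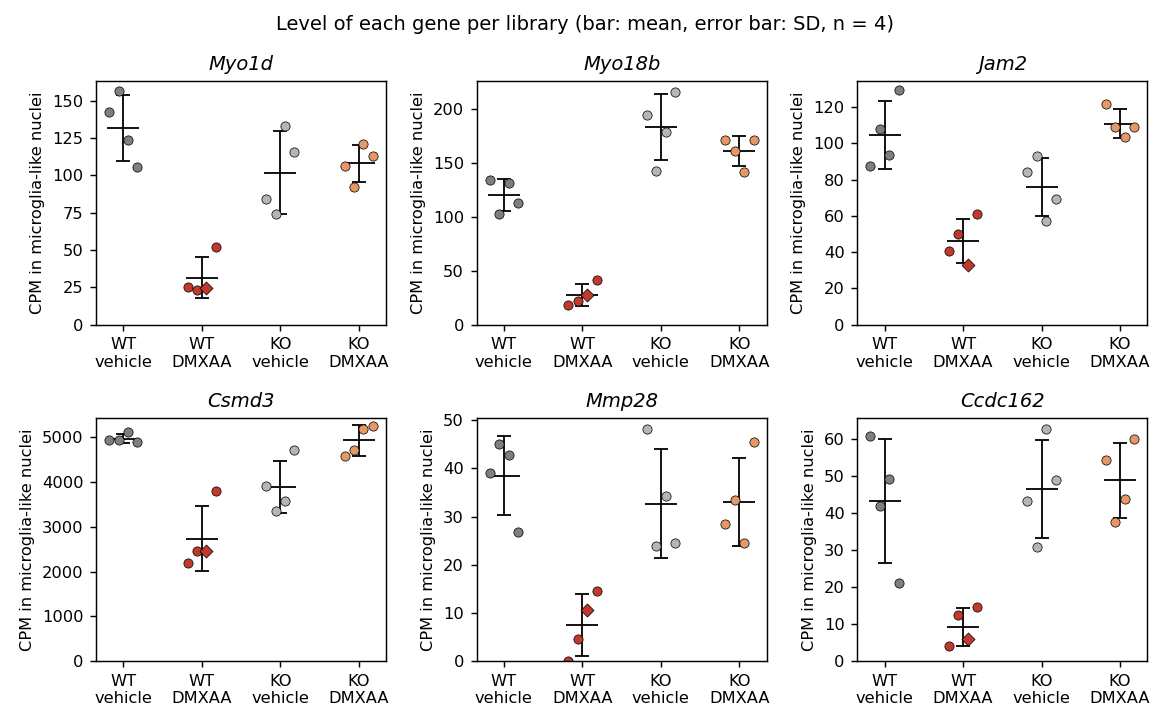
CPM of each gene in microglia-like nuclei, 1 point per library (diamond: WT DMXAA replicate 3), with the mean (bar) and SD (error bar) of each group of 4 libraries. In every panel the 4 WT DMXAA points lie below the 4 WT vehicle points, and for Myo1d, Mmp28 and Ccdc162 both KO groups overlap WT vehicle. Both KO groups of Myo18b lie wholly above WT vehicle, and Csmd3 in KO vehicle lies wholly below it.

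For all 6 genes the WT groups were separate, which holds for 3.28% of the 8910 genes but is what the genes were chosen for, so nothing is read from it. The call rule (adjusted p under 0.05 and an absolute log2 change over 0.1) gave 53 lower genes in WT microglia, 0.595% of those tested, and 164 genes in either direction (1.84%). Among these 53, ranked by size, Dbp (-2.55) came first and Mmp28, Gm11368 (-2.19), Ccdc162 and Gm15232 (-2.10) followed. Myo18b was 6th and Myo1d 7th, just outside the first 5, then came Gm3164 (-1.76). Jam2 was 21st and Csmd3 30th. More negative responses in WT than in KO were called for 5 genes (0.0561%). The differences, WT minus KO, were -1.85 (SE 0.28) for Myo18b, -2.05 (SE 0.33) for Myo1d, -1.64 (SE 0.28) for Jam2, -1.11 (SE 0.20) for Csmd3 and -1.57 (SE 0.30) for Fcrls. Those of Mmp28 (-2.20, SE 0.65) and Ccdc162 (-2.17, SE 0.50) were as large but less precise and were not among the calls. Without WT DMXAA replicate 3 the differences of the 6 genes ran from -1.13 (Csmd3) to -2.48 (Mmp28). With all libraries, the next genes by p after the 5 called were Hpgd (-1.40, SE 0.29), Adamts16 (-1.54, SE 0.32) and Mir99ahg (-0.59, SE 0.12).

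The WT changes kept their size without WT DMXAA replicate 3. The log2 changes then ran from -0.83 for Csmd3 and -1.06 for Jam2 to -2.03 for Ccdc162, -2.14 for Myo18b and -2.50 for Mmp28. The number of genes called lower rose to 405 of 9136 (4.43%), and of genes called either way to 724 (7.92%). Without replicate 4, in which each of the 6 genes was highest among the WT DMXAA libraries, the changes were larger, from -1.02 (Csmd3) to -2.72 (Mmp28), and 79 of 9130 genes were called lower (0.865%).

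Vehicle levels of KO and WT microglia also differed for some of the genes, a contrast that shares its libraries with those that chose them. Myo18b was higher in every KO vehicle library than in any WT vehicle library (183 ± 30.8 against 120 ± 15.1 CPM), and Csmd3 was lower (3882 ± 585 against 4956 ± 100.4 CPM). The fitted log2 differences were 0.72 (SE 0.19) for Myo18b and -0.24 (SE 0.14) for Csmd3, the second not called by edgeR. Myo1d, Jam2, Mmp28 and Ccdc162 overlapped between genotypes. Across all genes 29.8% were separate by genotype in one direction or the other, and genotype cannot be told apart from age and cohort.

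The 4 WT DMXAA libraries differed among themselves in how low the genes were. The median level of the 6 genes, as a percentage of the WT vehicle mean, was 17.0, 23.6, 25.2 and 38.8% in replicates 1 to 4. The summed level of a list of 26 interferon-stimulated genes was 8658, 4809, 2459 and 4353 CPM in the same libraries, against 610 to 707 CPM in WT vehicle, 313 to 400 CPM in KO vehicle and 327 to 438 CPM in KO DMXAA. Replicate 1, with the highest interferon sum, had the lowest median but not the lowest level of every gene, since Jam2 was lower in replicate 3 and Myo1d in replicates 2 and 3. Replicate 3 had the lowest interferon sum of its group and not the highest median. With 4 libraries no correlation is given.

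Markers of other cells moved with some libraries. Excitatory neuron markers summed to 248, 240, 920 and 261 CPM in the microglia of WT DMXAA replicates 1 to 4, against 271 to 469 CPM in WT vehicle. Choroid plexus markers summed to 169, 346, 14.2 and 748 CPM, against 7.0 to 227 CPM. Border macrophage markers were low, at 14.1 to 20.9 CPM against 6.4 to 18.8 CPM in WT vehicle, and Pf4 was at 0 in all 16 libraries. The microglial markers themselves summed to 6187 to 9173 CPM in WT DMXAA and 9310 to 10132 CPM in WT vehicle.

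**Figure D3:**
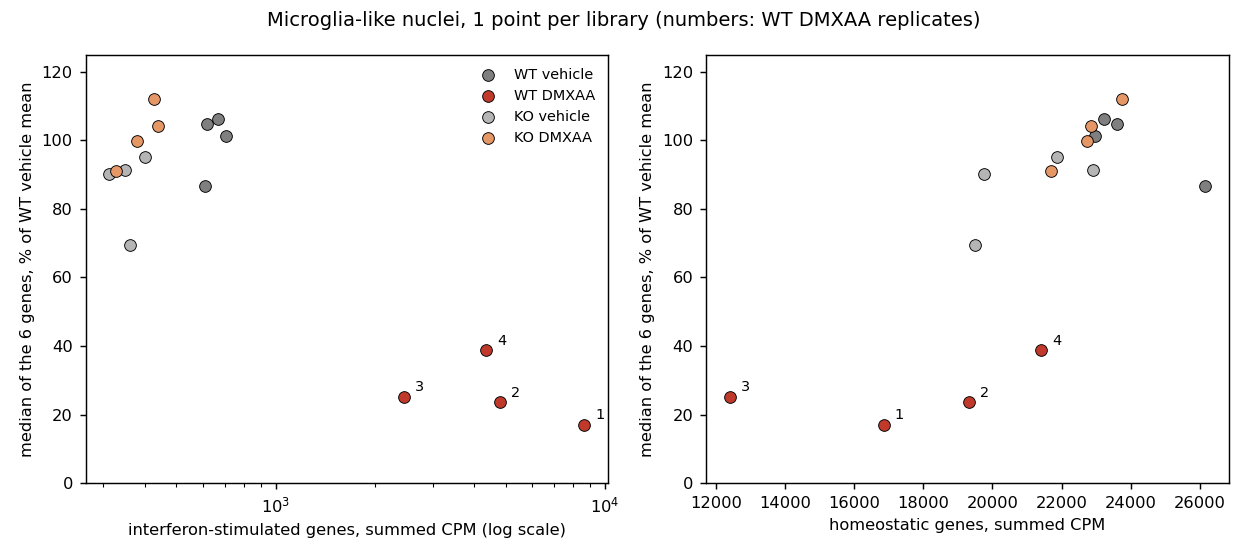
Median level of the 6 genes in microglia of each library, as a percentage of the WT vehicle mean (vertical), against the summed CPM of the interferon-stimulated list (left, log axis) and of the homeostatic microglia list (right). The 4 WT DMXAA libraries lie at 17.0 to 38.8%, apart from all others on both axes of the left panel.

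Such markers allow an upper estimate of UMIs that other cells could bring, by giving each gene its ratio to the markers as measured in the other class. For Myo18b no class could have supplied more than 0.3% of its microglial UMIs in either WT group. For Myo1d, oligodendrocyte nuclei could account for 8.7% of the UMIs with vehicle and 33.7% with DMXAA. Excitatory neurons could account for 4.1% and 20.8%, and choroid plexus for 1.7% and 17.1%. For Ccdc162, choroid plexus could account for 5.3% with vehicle and 49.1% with DMXAA, and for Csmd3 excitatory neurons for 3.3% and 6.7%. In WT DMXAA replicate 3 the Csmd3 share was 15.7%, which leaves 2070 CPM. The Myo1d share in that library was 84.6% for oligodendrocytes, which leaves 3.8 CPM, and 71.7% for excitatory neurons, which leaves 7.0 CPM. In the other WT DMXAA libraries the oligodendrocyte share of Myo1d was 16.3 to 35.9%. A smaller observed count alone makes such a share larger, and the part of these sources in the result was not tested.

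The share of microglial nuclei with a UMI gives a second view of the same counts. With each nucleus thinned to 1000 UMIs, which left out 9 and 16 nuclei of WT mice (vehicle, DMXAA) and 25 and 28 of KO mice, a Myo1d UMI was seen in 12.06% ± 2.37 of WT vehicle and 2.78% ± 1.46 of WT DMXAA microglia. For Myo18b the shares were 10.52% ± 2.05 and 2.46% ± 0.78, and for Jam2 8.78% ± 0.98 and 3.79% ± 1.07. The Mmp28 share went from 3.20% ± 0.66 to 0.40% ± 0.46 and that of Ccdc162 from 4.34% ± 2.16 to 0.70% ± 0.27. Csmd3 was still seen in 78.65% ± 5.23 of nuclei after DMXAA, against 89.24% ± 1.17, while its UMIs per positive nucleus, without thinning, went from 10.3 to 6.35. Without thinning, the shares were 19.26% and 5.61% for Myo1d, 18.31% and 5.08% for Myo18b, and 93.27% and 87.66% for Csmd3. Without WT DMXAA replicate 3 the thinned shares after DMXAA were 3.09% ± 1.61 for Myo1d, 2.33% ± 0.90 for Myo18b and 77.54% ± 5.80 for Csmd3 (n = 3). In KO microglia the thinned shares were 15.02% ± 0.76 and 13.91% ± 1.35 for Myo18b and 9.17% ± 2.79 and 10.10% ± 2.27 for Myo1d.

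Whether DMXAA moved the same genes in other classes was tested in 7 classes with edgeR. A low-count filter left 29 pairs of gene and class. Myo1d passed in all 7 classes, Csmd3 in 7, Jam2 in 6, Ccdc162 in 5, Mmp28 in 3 (OPC, astrocytes, fibroblasts) and Myo18b only in excitatory neurons. In WT mice 0 of 29 pairs were called (background 0.143% of 83192 gene and class pairs), 4 had an unadjusted p under 0.05, and DESeq2 called 0 of 41 pairs. These 4 were Myo1d in OPC (log2 change 0.81, SE 0.34), Mmp28 in astrocytes (-0.56, SE 0.21), Csmd3 in choroid plexus (-0.66, SE 0.31) and Ccdc162 in choroid plexus (-0.30, SE 0.13), with adjusted p of 0.441 or more. DESeq2 gave no adjusted p for Csmd3 in WT astrocytes, fibroblasts and choroid plexus, so it could not call these pairs. In KO mice 0 of 29 were called (background 0%), 3 had an unadjusted p under 0.05, and DESeq2 called 0. These were Jam2 in inhibitory neurons (1.16, SE 0.30) and in oligodendrocytes (0.73, SE 0.28), both of the same sign as Jam2 in KO microglia, and Ccdc162 in inhibitory neurons (-0.58, SE 0.24), with adjusted p of 0.743 or more. The difference between genotypes was called for 0 of 29 pairs (background 0.018%), with 3 at an unadjusted p under 0.05 and 0 by DESeq2. Without WT DMXAA replicate 3, which had too few choroid plexus nuclei to enter that class, edgeR called 0 of the 26 pairs of the other classes in WT (5 at an unadjusted p under 0.05, background 0.89%) and 0 as a difference between genotypes (3 at an unadjusted p under 0.05, background 0.0529%). In WT, 9 of the 26 values then changed sign, most of them near 0. The largest turns were those of Csmd3, from 0.60 (SE 0.53) to -1.13 (SE 0.31, edgeR adjusted p = 0.09) in fibroblasts and from 0.93 (SE 0.54) to -0.60 (SE 0.19, adjusted p = 0.146) in astrocytes, where replicate 3 held 342 and 442 CPM and the other 3 libraries 27.4 to 60.8 and 53.1 to 59.0 CPM. Myo1d in astrocytes went from 1.17 (SE 0.60) to 0.06 (SE 0.50), and Myo1d in OPC from 0.81 to 0.45 (SE 0.34).

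Several of these pairs lie in the classes where the gene was most abundant. Csmd3 in OPC changed by 0.07 (SE 0.09) on the log2 scale in WT, in oligodendrocytes by -0.07 (SE 0.10) and in excitatory neurons by 0.05 (SE 0.12). Myo1d in oligodendrocytes changed by 0.02 (SE 0.13) and in choroid plexus by -0.06 (SE 0.14). Jam2 changed by -0.10 (SE 0.10) in astrocytes and -0.25 (SE 0.17) in OPC. The edgeR adjusted p of these 7 values was 0.919 or more. Ccdc162 in choroid plexus, where it was highest of the 8 classes, was lower by more, at -0.30 (SE 0.13, edgeR adjusted p = 0.441). The difference between these changes and those of the same genes in microglia was not tested.

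**Figure D4:**
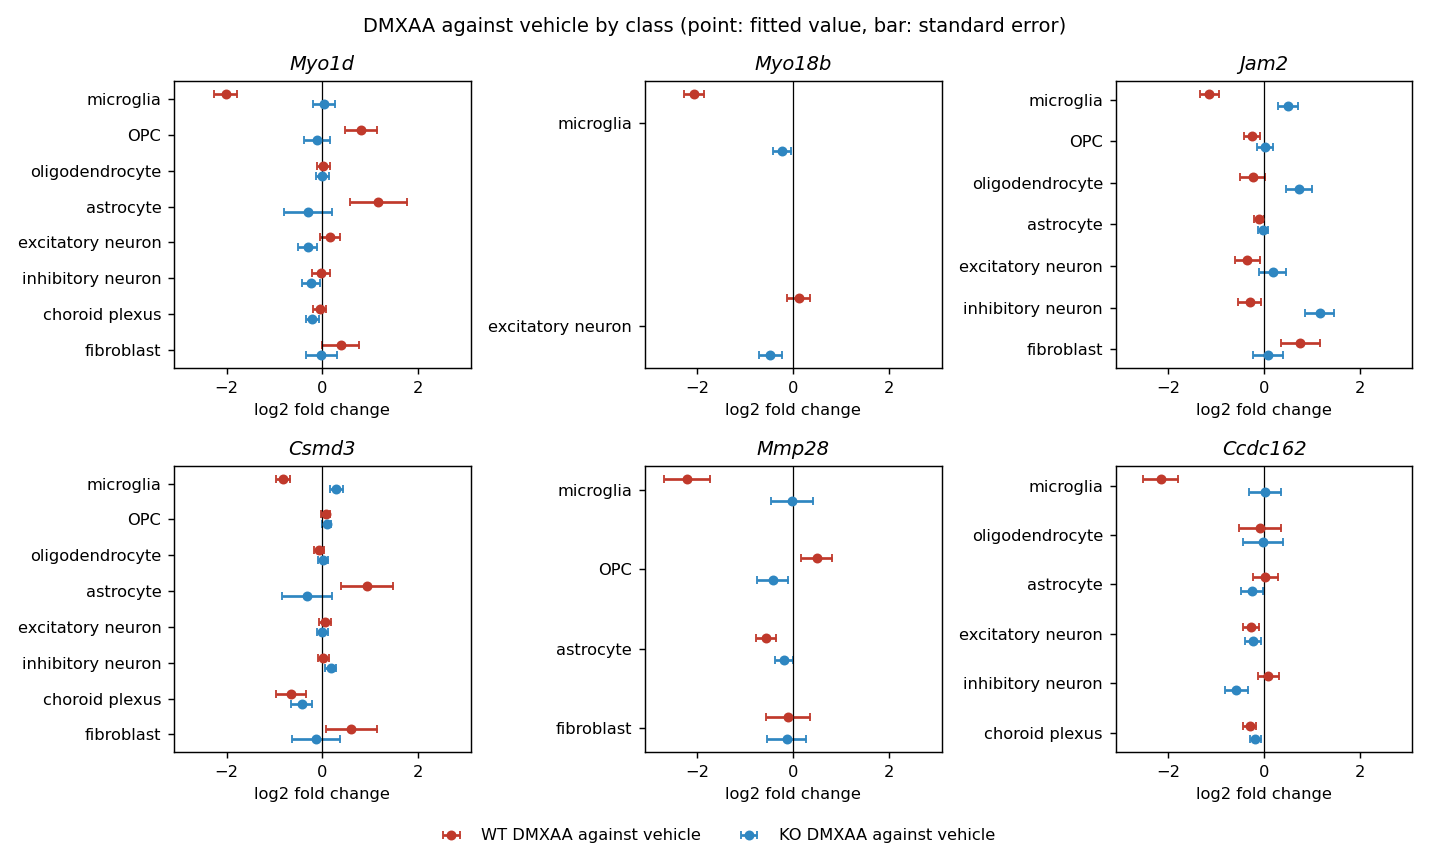
Log2 change with DMXAA (horizontal) of each gene in each class where it passed the low-count filter (vertical), in WT (red) and KO (blue) mice; points are fitted values and bars standard errors. With all libraries, the lowest values are those of WT microglia, from -0.82 (Csmd3, SE 0.14) to -2.22 (Mmp28). No value of another class then lies below -0.66 (Csmd3 in WT choroid plexus, SE 0.31). Without WT DMXAA replicate 3, Csmd3 stood at -1.13 (SE 0.31) in WT fibroblasts and -0.60 (SE 0.19) in WT astrocytes.

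KO vehicle against WT vehicle gave calls for 11 of 29 pairs in these classes, beside 32.4% of all gene and class pairs, so the genes were called about as often as any. Myo1d was higher in KO in 5 classes: by 1.70 (SE 0.32) on the log2 scale in OPC (edgeR adjusted p = 0.00123), 1.01 (SE 0.20) in excitatory neurons (0.00158), 0.75 (SE 0.13) in oligodendrocytes (0.00149), 0.69 (SE 0.18) in inhibitory neurons (0.00687) and 0.61 (SE 0.13) in choroid plexus (0.00152). In oligodendrocytes, its main class, Myo1d was at 567, 438, 577 and 605 CPM in WT vehicle and 834, 957, 790 and 703 CPM in KO vehicle libraries. No KO vehicle library was as low as a WT one. How many of all genes were separate in this way was not counted in oligodendrocytes, so nothing is read from it. Of 12104 genes tested there, 1559 were called higher and 1988 lower in KO. The shares of all genes called higher in KO were 13.1% in OPC, 23.3% in excitatory neurons, 12.9% in oligodendrocytes, 19.1% in inhibitory neurons and 13% in choroid plexus.

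Ccdc162 was higher in KO choroid plexus by 0.65 (SE 0.13, edgeR adjusted p = 0.000405), with 298, 271 and 278 CPM in WT and 389, 417 and 433 CPM in KO vehicle libraries. It was higher in KO astrocytes by 0.80 (SE 0.24, adjusted p = 0.0211; 13% of genes higher), a call lost without WT vehicle replicate 4 or KO vehicle replicate 2 (highest adjusted p = 0.0747). Csmd3 was higher in KO choroid plexus by 1.30 (SE 0.24, adjusted p = 0.000334), on 56 WT and 202 KO UMIs. By the upper estimate used above, those Csmd3 UMIs could have come from microglia (409.7% of them in WT and 80.6% in KO), excitatory neurons (227.9% and 116.1%) or OPC (151.6% and 80.9%), and the part of these sources was not tested. Jam2 was lower in KO inhibitory neurons by 1.56 on the log2 scale (log2 change -1.56, SE 0.29, adjusted p = 0.00127), from 15.2, 14.5, 14.1 and 13.1 CPM in WT to 4.68, 4.01, 4.01 and 2.29 CPM in KO vehicle libraries. Lower calls in KO were common in this class, with 2610 of 12723 genes by TMM and 5502 by library totals alone. Within inhibitory neurons, Jam2 was at 21.9 ± 2.16 CPM in the Adarb2 group and 2.76 ± 0.98 CPM in the Lhx6 group of WT vehicle libraries, and at 5.73 ± 3.02 and 1.03 ± 0.69 CPM in KO vehicle libraries. With DMXAA the Adarb2 group had 11.6 ± 2.46 CPM of Jam2 in WT and 9.11 ± 7.78 CPM in KO libraries. These differences from vehicle, picked from many pairs of gene and neuron group, were not tested at this level. Over all inhibitory neurons edgeR did not call the WT change of Jam2 (-0.30, SE 0.24). By the upper estimate used above, OPC nuclei could have supplied 52.8% of the Jam2 UMIs in WT inhibitory neurons and 176.2% in KO. Sox6, one of the OPC markers, was also a top gene of the Lhx6 inhibitory neuron cluster. These shares therefore include UMIs of the neurons' own and can be too high, and they were not tested further. For Myo1d in OPC the estimate was 74.9% in WT and 98.2% in KO for oligodendrocytes and 95.6% and 52.9% for excitatory neurons. No pair was called in fibroblasts, where 3.17% of genes were higher in KO.

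Genotype values in neurons depended on scaling. TMM, which aligns the bulk of genes, moved the median of all genes in excitatory neurons by 0.46 on the log2 scale relative to library totals alone, and the calls went from 1513 higher and 9826 lower genes to 4138 higher and 4596 lower. Csmd3 in excitatory neurons was called higher in KO with TMM (0.35, SE 0.12, adjusted p = 0.022) but stood at -0.11 (SE 0.07) with totals alone, a change of sign. Myo18b there (0.94, SE 0.24, adjusted p = 0.00507, on 74 and 93 UMIs) stood at 0.47 (SE 0.25) with totals and was no longer called, and its microglial source could supply 148.2% of the UMIs in WT and 60.2% in KO. Myo1d in inhibitory neurons stood at 0.33 (SE 0.17) with totals and lost its call, whereas Myo1d in excitatory neurons kept it at 0.54 (SE 0.13). Jam2 in excitatory neurons, not called with TMM (-0.67, SE 0.27, adjusted p = 0.0523), was called lower with totals (-1.12, SE 0.32). The DMXAA contrasts of the 6 genes in microglia moved by at most 0.06 under the same change.

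**Figure D5:**
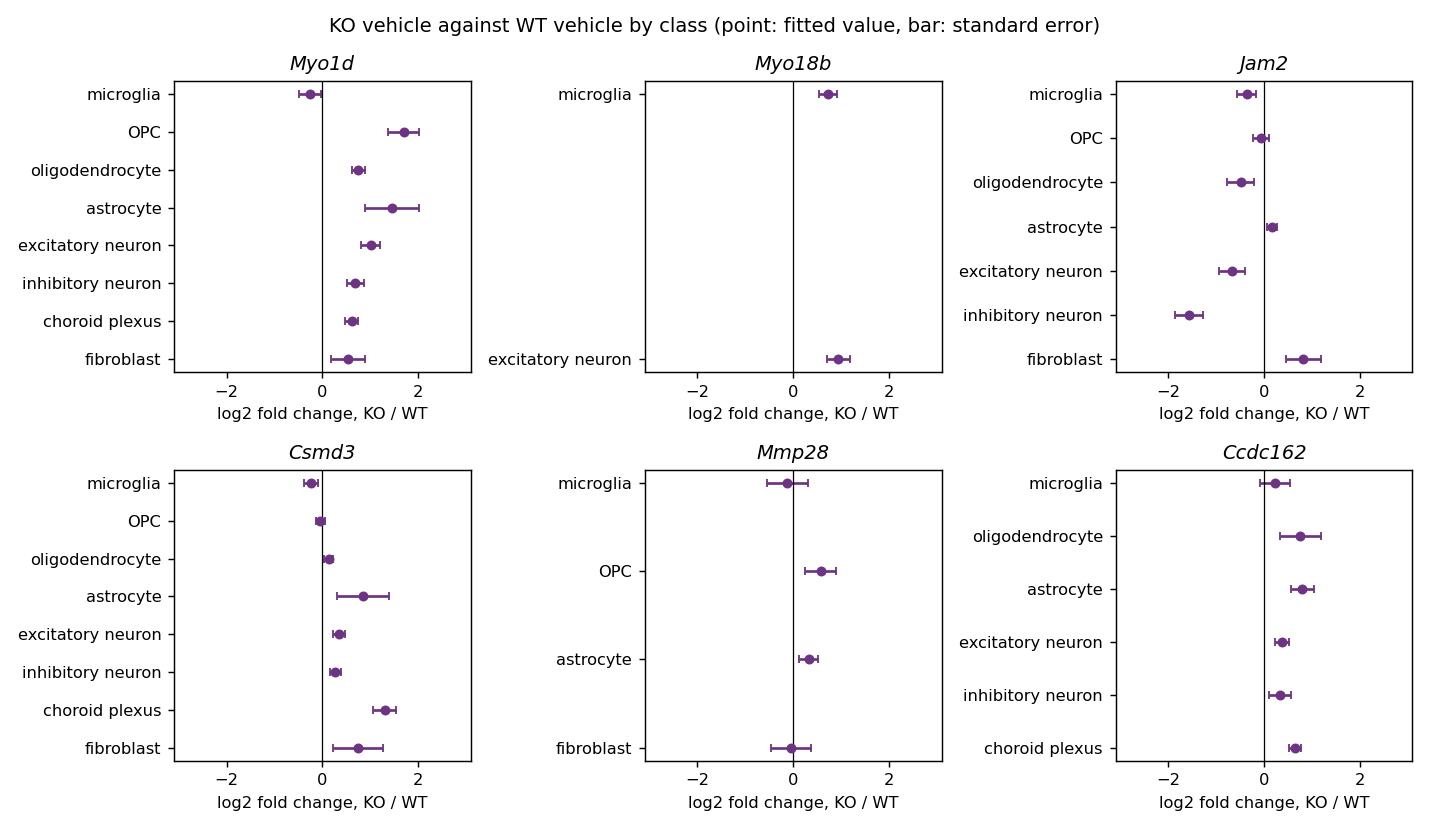
Log2 difference of KO vehicle from WT vehicle (horizontal, TMM scaling) of each gene in each class where it passed the low-count filter (vertical); points are fitted values and bars standard errors. Myo1d lies above 0 in every class but microglia, and Jam2 in inhibitory neurons lies lowest at -1.56; genotype coincides with age and cohort.

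The relatives of the 6 genes in microglia were examined by family, from lists of related proteins. Of 76 other myosins, junction adhesion molecules and partners, CUB and sushi proteins, and metalloproteinases with their inhibitors, 33 passed the filter in microglia and 1 was called in WT. This was the myosin gene Myo9b, which was higher by 0.63 (SE 0.14, edgeR adjusted p = 0.0231). The Myo9b call was lost without WT vehicle replicate 1, 3 or 4, without WT DMXAA replicate 1, without the low-count filter and without the nuclei richest in foreign markers (highest adjusted p = 0.0923). The median log2 change was -0.15 over 13 myosins, 0.02 over 7 junction genes, 0.21 over 10 CUB and sushi genes and 0.57 over 3 metalloproteinase genes, against 0.03 over all genes tested. Abundant genes of the other families were not called by edgeR. The log2 changes were -0.19 (SE 0.13, adjusted p = 0.733) for Tjp1, which encodes the scaffold ZO-1, 0.02 (SE 0.10, adjusted p = 0.973) for F11r, which encodes junctional adhesion molecule A, and -0.25 (SE 0.16, adjusted p = 0.693) for Timp2, a metalloproteinase inhibitor. Csmd1, a relative of Csmd3, stood at 1.18 (SE 0.73, adjusted p = 0.669) and Mmp16, a membrane-bound metalloproteinase, at 0.91 (SE 0.80, adjusted p = 0.792) with all libraries, and both turned negative without WT DMXAA replicate 3. Without that library, 5 family genes were called: Mmp16 (-1.94), Susd4 (-1.34), Csmd1 (-1.16) and Afdn (-0.87) lower and Myo9b (0.57) higher. In the same fit 7.92% of all genes tested in microglia were called in either direction, against 1.84% with all libraries. Csmd1 was at 2188 CPM in replicate 3, against 198, 100.3 and 141 CPM in the other WT DMXAA libraries, and Mmp16 at 279 CPM against 9.7 CPM in replicate 1. Replicate 3 also had the highest excitatory neuron marker sum, 920 CPM. By the upper estimate used above, excitatory neurons could account for 97.6% of its Csmd1 UMIs and 66.5% of its Mmp16 UMIs. In the WT vehicle libraries the estimate was 157.2 to 240.1% for Csmd1 and 130.5 to 191.9% for Mmp16. All microglial UMIs of these 2 genes there could thus be foreign, and the part of this source was not tested.

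Homeostatic genes, those that mark microglia at rest, were mostly below 0 in WT microglia given DMXAA. Of 24 tested, 21 had a negative value, with a median log2 change of -0.38, and 2 fell past the threshold. These were Fcrls, an Fc receptor-like gene of microglia (-1.39, SE 0.22, edgeR adjusted p = 0.00158), and Slc2a5, the fructose transporter (-0.67, SE 0.16, adjusted p = 0.0347). Fcrls was called in all 22 alternatives run in microglia, whereas Slc2a5 was called in 12 of them (highest adjusted p = 0.136). The number called lower was 9 without WT DMXAA replicate 3 and 7 without replicate 4, but 1 without WT DMXAA replicate 1 or 2, without WT vehicle replicate 1, 2 or 3, without KO vehicle replicate 1, or without KO DMXAA replicate 1 or 3. It was 4 without WT vehicle replicate 4. Over all genes tested in WT microglia, 0.595% were called lower with all libraries. That share was 4.43% without WT DMXAA replicate 3 and 0.865% without WT DMXAA replicate 4, so the list counts moved along with calls over all genes. In KO microglia 0 of the homeostatic genes were called and their median was 0.05. Of the interferon-stimulated list, all 20 genes tested in microglia rose in WT (median log2 change 2.86), among them Trim30a from 115 ± 20.4 to 604 ± 201 CPM and Rnf213 from 77.4 ± 8.60 to 474 ± 192 CPM, and 0 were called in KO (median 0.00). Without WT DMXAA replicate 3, all 22 genes then tested rose, with a median of 3.60.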

How the data were processed

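Single-nucleus RNA-seq of mouse hippocampus was analysed from the deposited matrices, in which the authors give raw UMI counts, not normalized, as made by Cell Ranger. The submitters' notes name Cell Ranger 3.1.0 and Seurat 3.0, whereas the matrix header names Cell Ranger 6.1.2. Reads were aligned to mm10 with introns counted. Nuclei had been sorted by DAPI from frozen right hippocampi. The study tested single nuclei. Nuclei are not replicates, so UMIs were summed per library here.

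The 6 genes and all lists were chosen with earlier results of these data known. Of 155084 barcodes, 118205 had 200 to 4000 genes and at most 5% mitochondrial UMIs, and 9327 doublets, called from simulated ones at 0.8% per 1000 barcodes, were removed. Counts were scaled to 10000 and logged. With 2000 variable genes (3 of the 6 genes among them were left out), 30 principal components and 20 neighbours, Leiden clustering at resolution 0.5 (leidenalg 0.10.2, Python 3.11.15) gave 33 clusters. Clusters were named "X-like" from fixed markers. These classes were rebuilt, so values may differ from the study's for that reason.

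Sums of libraries with at least 20 nuclei of a class were fitted with edgeR 4.0.16 in R 4.3.3 (TMM, filterByExpr, two-sided quasi-likelihood test, 4 groups sharing the dispersion). The choroid plexus fit used 12 libraries. P-values were adjusted by Benjamini-Hochberg over all genes of a class and contrast. They measure the spread between libraries. Replicate numbers only name libraries. CPM use library totals. DESeq2 1.42.0, RLE factors, no filter, each library left out, resolution 1, thinning to 1000 UMIs and removal of the 25% of microglial nuclei with most foreign markers were tried as alternatives. Scaling by totals alone was added after seeing the data. The fits were tested on simulated data. Named genes were the 6 genes, list genes called in WT microglia or otherwise the 2 most abundant of a list (of the interferon-stimulated list only the 2 most abundant are printed), genes next in rank and the 3 genes most alike in class pattern. Susd4 and Afdn were named after their values were seen. Another list gene is not reported here.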

Additional observations from a re-analysis of the deposited data

Results flagged for a closer look

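Every group of 4 libraries of the gene and class pairs fitted, 128 in all, was checked for a library far from the other 3, a check that flags about 1 group in 20 by chance, and 9 were found. In WT DMXAA replicate 3, Csmd3 was at 442.2 CPM in astrocytes against 53.1 to 59.0 CPM in the other 3 libraries, and at 341.9 CPM in fibroblasts against 27.4 to 60.8 CPM. In WT DMXAA microglia, replicate 4 stood apart for Myo1d, at 52.0 CPM against 23.5 to 25.1 CPM in the other 3 libraries. The same library stood apart for Csmd3, at 3797.6 CPM against 2194.4 to 2458.7 CPM. In OPC, KO vehicle replicate 2 had the lowest Csmd3 level, 2511.1 CPM against 3089.4 to 3171.1 CPM. Mmp28 stood apart in OPC of KO DMXAA replicate 4 (4.6 against 10.2 to 10.3 CPM) and in astrocytes of KO vehicle replicate 4 (11.9 against 14.6 to 15.2 CPM). Myo1d stood apart in astrocytes of WT vehicle replicate 3 (1.5 against 3.7 to 4.1 CPM), and Ccdc162 in excitatory neurons of KO DMXAA replicate 4 (5.0 against 4.2 to 4.3 CPM).

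The response to DMXAA was called different between genotypes in microglia for 4 of the 6 genes. The difference in log2 change, WT minus KO, was -2.05 for Myo1d, -1.85 for Myo18b, -1.64 for Jam2 and -1.11 for Csmd3. These values chose the 4 genes and are not independent evidence. The differences of Mmp28 (-2.20, SE 0.65) and Ccdc162 (-2.17, SE 0.50) were of similar size with larger errors, so these 2 genes are not shown to behave otherwise.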

How the results depend on the processing

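The counts of the 6 genes called in other classes with DMXAA, in WT, in KO or as a difference, and of Mmp28 and Ccdc162 called in KO microglia, were 0 under all alternatives run. DESeq2 could not call the pairs for which it gave no adjusted p, among them Csmd3 in WT astrocytes and fibroblasts. Calls between genotypes numbered 11 of 29 pairs, 14 of 41 with DESeq2, which tests more pairs, 9 with totals alone (where 37.9% of all pairs were called, against 32.4%), and 10 to 17 when 1 library was left out, 17 without WT DMXAA replicate 3. That replicate is not in this contrast and enters only through the shared fit. The share of all pairs called is not given for DESeq2 or with a library left out. Nothing particular to the 6 genes is therefore read from these counts. Homeostatic genes called lower in WT microglia numbered 2, 5 with DESeq2, 1 without the nuclei richest in foreign markers, and 1 to 9 when 1 library was left out. Family genes called numbered 1, 0 without the low-count filter, 0 without those nuclei, and 0 to 5 when 1 library was left out. The highest counts, 9 and 5, came without WT DMXAA replicate 3. There 4.43% of all microglial genes were called lower and 7.92% either way, against 0.595% and 1.84% with all libraries. The median microglial log2 change of the 6 genes in WT, -2.05, ran from -2.36 (without WT DMXAA replicate 4) to -1.85. As a log2 ratio of the shares of thinned nuclei with a UMI, DMXAA to vehicle, Csmd3 gave -0.18, Mmp28 -3.00 and Ccdc162 -2.63. No value of the 6 genes in WT microglia changed sign, whereas 9 of 26 in other classes did without WT DMXAA replicate 3. The cause of these shifts was not tested. No paired analysis was possible because the replicate numbers used here follow the order of deposit and only name libraries, and the titles of vehicle and DMXAA libraries of a genotype share no number. Depth limits Mmp28 and Ccdc162, with 23 and 27 UMIs in WT DMXAA microglia.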
